A study of Homo sapiens with 12 samples.

Results

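The genes described here are 10 genes of the contractile apparatus and the extracellular matrix: ACTA2, TAGLN, LOX, FN1, FBN1, LTBP1, SPARC, THBS1, CTGF and CYR61. They were picked by name around the lower values of ACTA2 and LOX after ERI2 siRNA, and all 10 were found among the 55765 gene names of the RNA-seq count table. The values that led to the choice are those of the comparison of ERI2 siRNA with control siRNA, so these values are given for the 10 genes as a description, and nothing is supported with them. HEK293T, an established line of embryonic human kidney origin with a viral T antigen, received siRNA against the exonuclease gene ERI2 or a control siRNA. Each group has 3 RNA-seq libraries and 3 libraries of microRNA (miRNA). Per the labels' protocols, cells of both groups were transfected with 50 nM siRNA by lipid reagent, transfected again 48 hours later and harvested 72 hours after the second transfection. That protocol, the same for every sample, lists siRNAs to ERI-1 as well as ERI-2 and speaks of microarrays, and the groups here are taken from the sample labels. The cell line label reads HEK293T and the growth protocol names HEK293, there was no group with a second ERI2 siRNA and no rescue, and no label tells whether replicates came from separate cultures. The p-values thus rest on a spread between libraries that may be technical.

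Smooth muscle actin (ACTA2) and transgelin (TAGLN) belong to the actin filaments that cells use to contract. Outside the cell, fibronectin (FN1) and fibrillin-1 (FBN1) assemble into fibrils and microfibrils, LTBP1 ties latent TGF-beta to these microfibrils, and lysyl oxidase (LOX) crosslinks collagen and elastin. SPARC, thrombospondin-1 (THBS1), CTGF and CYR61 are matricellular proteins, which are secreted into the matrix and act on cells rather than as scaffold. Many of these genes are known targets of TGF-beta, of serum response factor, which binds CArG boxes, or of YAP and TAZ, which act through TEAD proteins.

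The start regions of the genes are shown so that the known motifs upstream of each gene can be read beside its values. RefSeq start windows (GRCh38.p14) were found for 8 of the 10 genes, and TAGLN and CYR61 had none. The 250 bases before the start are printed for 5 genes, in lower case, with capitals for matches on either strand to a relaxed CArG box, to the TEAD motif GGAATG, to TATAAA and to the cyclic AMP response element TGACGTCA. A relaxed CArG box is CC and GG around 6 bases of which at least 5 are A or T. The second of 2 listed ACTA2 starts is shown, and the first listed starts of LOX and LTBP1.
ACTA2, GRCh38.p14 chr10:88952774-88953023, minus strand: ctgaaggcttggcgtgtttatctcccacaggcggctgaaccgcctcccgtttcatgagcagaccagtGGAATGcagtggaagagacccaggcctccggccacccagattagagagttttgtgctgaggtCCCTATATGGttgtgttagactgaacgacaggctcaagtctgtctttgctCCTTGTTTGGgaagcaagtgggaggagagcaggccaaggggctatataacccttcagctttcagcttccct
LOX, GRCh38.p14 chr5:122078260-122078509, minus strand: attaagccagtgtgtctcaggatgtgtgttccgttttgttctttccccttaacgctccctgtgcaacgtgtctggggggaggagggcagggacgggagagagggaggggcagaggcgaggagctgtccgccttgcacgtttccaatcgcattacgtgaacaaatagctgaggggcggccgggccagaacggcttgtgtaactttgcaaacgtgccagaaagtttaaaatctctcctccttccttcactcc
FN1, GRCh38.p14 chr2:215436069-215436318, minus strand: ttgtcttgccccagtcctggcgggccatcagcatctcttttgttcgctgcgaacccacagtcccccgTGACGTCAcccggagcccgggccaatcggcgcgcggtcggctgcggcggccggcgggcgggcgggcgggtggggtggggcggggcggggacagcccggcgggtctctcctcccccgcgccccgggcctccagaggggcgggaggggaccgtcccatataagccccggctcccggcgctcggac
LTBP1, GRCh38.p14 chr2:32946703-32946952, plus strand: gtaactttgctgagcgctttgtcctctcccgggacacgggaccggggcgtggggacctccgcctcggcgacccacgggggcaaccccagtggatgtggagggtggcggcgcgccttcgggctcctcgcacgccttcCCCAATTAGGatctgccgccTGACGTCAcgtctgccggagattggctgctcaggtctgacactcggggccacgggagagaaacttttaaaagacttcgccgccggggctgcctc
CTGF, GRCh38.p14 chr6:131951373-131951622, minus strand: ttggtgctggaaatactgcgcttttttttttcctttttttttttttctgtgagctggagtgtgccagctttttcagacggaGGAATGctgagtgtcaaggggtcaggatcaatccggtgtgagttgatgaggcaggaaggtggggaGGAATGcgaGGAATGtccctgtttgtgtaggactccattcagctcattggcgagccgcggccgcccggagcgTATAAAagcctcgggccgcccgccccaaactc

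The printed start of ACTA2 held 2 relaxed CArG boxes, CCCTATATGG from 121 to 112 and CCTTGTTTGG from 71 to 62 bases before the start, and 1 GGAATG motif. Its other listed start held none of these motifs. The printed start of LTBP1 held 1 relaxed CArG box, CCCAATTAGG, and shared TGACGTCA with FN1, and its other listed starts held none. Which start these cells use was not tested. CTGF held 3 GGAATG motifs, the most of the 8 genes, and a TATAAA from 32 to 27 bases before the start. SPARC, FBN1 and THBS1 held 1 GGAATG motif each, and the windows of LOX held none of these motifs. Of 34943 RefSeq windows of this length, 7.06% held a relaxed CArG box, 11.9% held GGAATG, 10.8% held TATAAA and 1.63% held TGACGTCA. None of the 8 genes held a CArG box with only A and T in its centre, which 1.16% of windows held. A match is a description of letters and not a site of binding.

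In units of 1e+06 counts, RNA-seq libraries held 29.1 to 38.3 and miRNA-seq libraries 0.723 to 1.03. Levels are in counts per 1e+06 counts (CPM) on TMM-scaled library sizes and are compared between libraries, not between genes, because they are not scaled by transcript length. ERI2, the target, measured 54.4, 58.2 and 54.4 CPM in control libraries and 34.6, 35.8 and 32.5 CPM in ERI2 siRNA libraries, so each library matched its label. Of 18843 genes tested, 8.54% passed edgeR's quasi-likelihood test at an adjusted p under 0.05, 4.25% lower and 4.29% higher with ERI2 siRNA. All 14 markers of the cell line, among them EYA1, NEFL, INA and ENO2, were tested, and 6 of the 14 reached 10 CPM. Their summed level was 259 to 289 CPM in control libraries and 222 to 244 CPM in ERI2 siRNA libraries, ranges that do not overlap, and their part in the values of the 10 genes was not tested. In RNA-seq, replicate 1 of each group was the least like its group: chi-square per degree of freedom between control libraries was 23.6 and 25.1 with replicate 1 and 14.01 without it, and between ERI2 siRNA libraries 14.9 and 16.2 against 5.07.

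The contractile gene ACTA2 was the most reduced of the 10. ACTA2 measured 18.6, 21.5 and 20.2 CPM in control libraries and 10.3, 9.02 and 7.52 CPM in ERI2 siRNA libraries. Every ERI2 siRNA library lay below every control library, and the highest was ERI2 siRNA replicate 1. The mean went from 20.1 ± 1.45 to 8.96 ± 1.40 CPM (SD, n = 3), 44.6% of the control level, a log2 fold change of -1.16 (SE 0.119). In these bulk samples, fewer cells with a transcript and less of it per cell cannot be told apart. TAGLN, the other contractile gene, did not follow. It measured 2.50, 1.89 and 1.74 CPM in control libraries and 1.87, 2.52 and 2.44 CPM in ERI2 siRNA libraries. The groups overlapped, and the log2 fold change was 0.15 (SE 0.219) with the sign opposite to that of ACTA2.

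LOX, the crosslinking enzyme, measured 14.02, 13.7 and 12.3 CPM in control libraries and 6.97, 7.69 and 6.76 CPM in ERI2 siRNA libraries. The groups did not overlap, and the 3 libraries of each group lay close together. The mean went from 13.3 ± 0.888 to 7.14 ± 0.485 CPM (SD, n = 3), 53.5% of control, a log2 fold change of -0.90 (SE 0.113). The numbers are not known to pair cultures, but against the control library of the same number the log2 difference was -1.002, -0.83 and -0.86 for LOX and -0.84, -1.25 and -1.42 for ACTA2. These differences ranged less for LOX than for ACTA2, whose smallest one was in number 1, where its control library was also the lowest of the 3. As the numbers are not known to be pairs, no effect per replicate is read from them.

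Among the fibril and microfibril genes, FN1 measured 174, 148 and 162 CPM in control libraries and 111, 118 and 121 CPM in ERI2 siRNA libraries. LTBP1 measured 77.7, 73.6 and 72.0 CPM against 56.4, 58.7 and 57.8 CPM. FBN1 measured 65.7, 59.1 and 61.0 CPM against 48.3, 49.4 and 47.7 CPM. In each of the 3 genes all ERI2 siRNA libraries were below all control libraries, and the ERI2 siRNA libraries were the more tightly spaced. The log2 fold changes were -0.47 (SE 0.0761) for FN1, -0.37 (SE 0.0689) for LTBP1 and -0.35 (SE 0.0728) for FBN1, or 72.3%, 77.4% and 78.3% of the control level.

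The matricellular genes did not share a pattern. SPARC, a collagen-binding glycoprotein, measured 33.1, 31.0 and 34.7 CPM in control libraries and 25.5, 22.5 and 24.8 CPM in ERI2 siRNA libraries. Its groups did not overlap, its mean was 73.7% of control, and its log2 fold change of -0.44 (SE 0.0853) was close to those of FN1, LTBP1 and FBN1. These 4 genes had log2 fold changes from -0.47 to -0.35, beside -1.16 for ACTA2 and -0.90 for LOX. Differences between the members were not tested.

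CTGF and CYR61, relatives of the CCN family that bind integrins, overlapped between the groups. CTGF measured 2.08, 2.19 and 1.57 CPM in control libraries and 1.11, 2.02 and 1.68 CPM in ERI2 siRNA libraries, with a log2 fold change of -0.28 (SE 0.252). CYR61 measured 6.85, 6.81 and 5.65 CPM against 5.13, 6.77 and 5.58 CPM, with a log2 fold change of -0.15 (SE 0.148). In both genes ERI2 siRNA replicate 1 was the lowest of the 6 libraries, and control replicate 3 was the lowest of the controls. The other CCN genes, NOV, WISP1, WISP2 and WISP3, were below the count filter.

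THBS1, which activates latent TGF-beta, was nearly absent, with 13, 10 and 9 reads in control libraries and 1, 15 and 9 reads in ERI2 siRNA libraries. Summed over a group these are 32 reads (exact Poisson 95% interval 21.9 to 45.2) against 25 (16.2 to 36.9), intervals that cover counting error only. It was the only member below the count filter and was not tested. TAGLN, CTGF and THBS1 shared their lowest ERI2 siRNA library, replicate 1, with CYR61. Of these 4 genes, TAGLN, CTGF and CYR61 were tested and did not pass. Replicate 1 against replicate 1 gave log2 differences of -0.41 for TAGLN, -0.87 for CTGF and -0.41 for CYR61, and replicate 2 against replicate 2 gave 0.40, -0.11 and -0.01. The numbers are not known to pair cultures, so these differences are a description only. With replicates 2 and 3 alone the log2 fold change of TAGLN was 0.44 (SE 0.237; edgeR's quasi-likelihood test, adjusted p = 0.168).

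**Figure D1:**
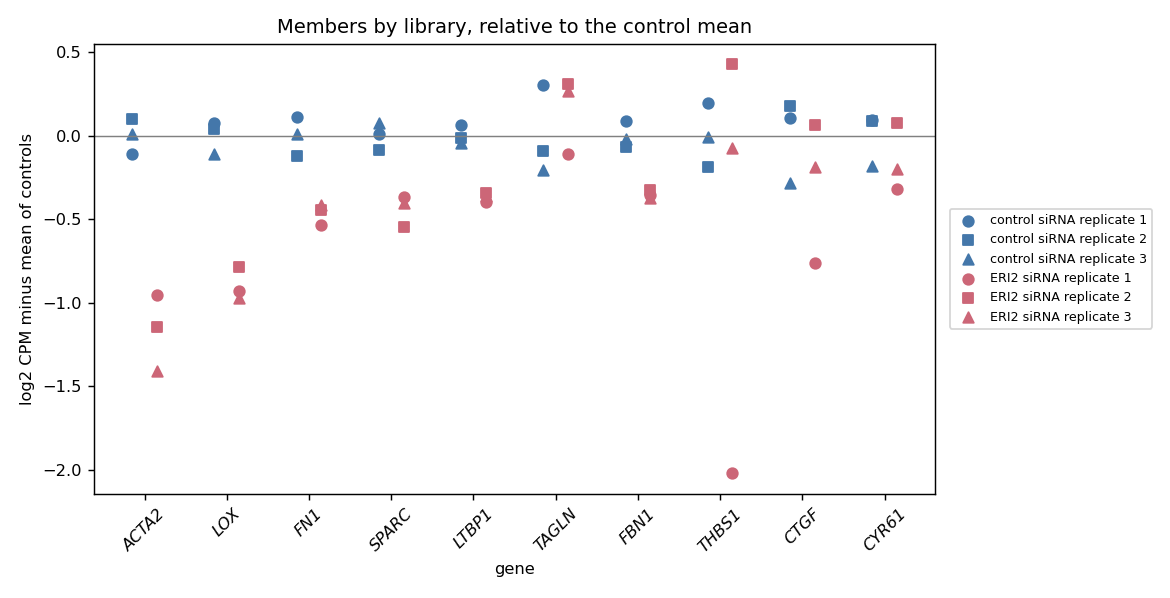
Level of each of the 10 genes in each RNA-seq library as log2 CPM minus the mean of the 3 control libraries (vertical axis), with blue points for control siRNA and red for ERI2 siRNA and a marker shape for each replicate number. ACTA2, LOX, FN1, SPARC, LTBP1 and FBN1 have all red points below all blue points, and in TAGLN, THBS1, CTGF and CYR61 the colours overlap.

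Counted over the list, 6 of the 9 members tested were past the threshold and lower, and edgeR called none higher (0 with unadjusted p under 0.05, 0 by DESeq2, 0 by limma-voom), where 4.25% of all genes tested were lower. The same 6 of 10 had groups that did not overlap, where 15.6% of tested genes were lower in this way and 29.7% did not overlap in either direction. The members were picked on this comparison, so no more is read from these counts. Their median log2 fold change over the 9 tested was -0.37, beside 0.003 over all genes tested. ACTA2, LOX and FN1 stayed past the threshold in all 15 alternative fits at this threshold. These fits reuse the libraries on which the members were picked, so they describe only the dependence on processing. Of the fits that leave out a library, SPARC (adjusted p = 0.0592 in edgeR's test) and FBN1 (0.0528) missed it without ERI2 siRNA replicate 2, and FBN1 (0.0570) missed it without ERI2 siRNA replicate 3.

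**Figure D2:**
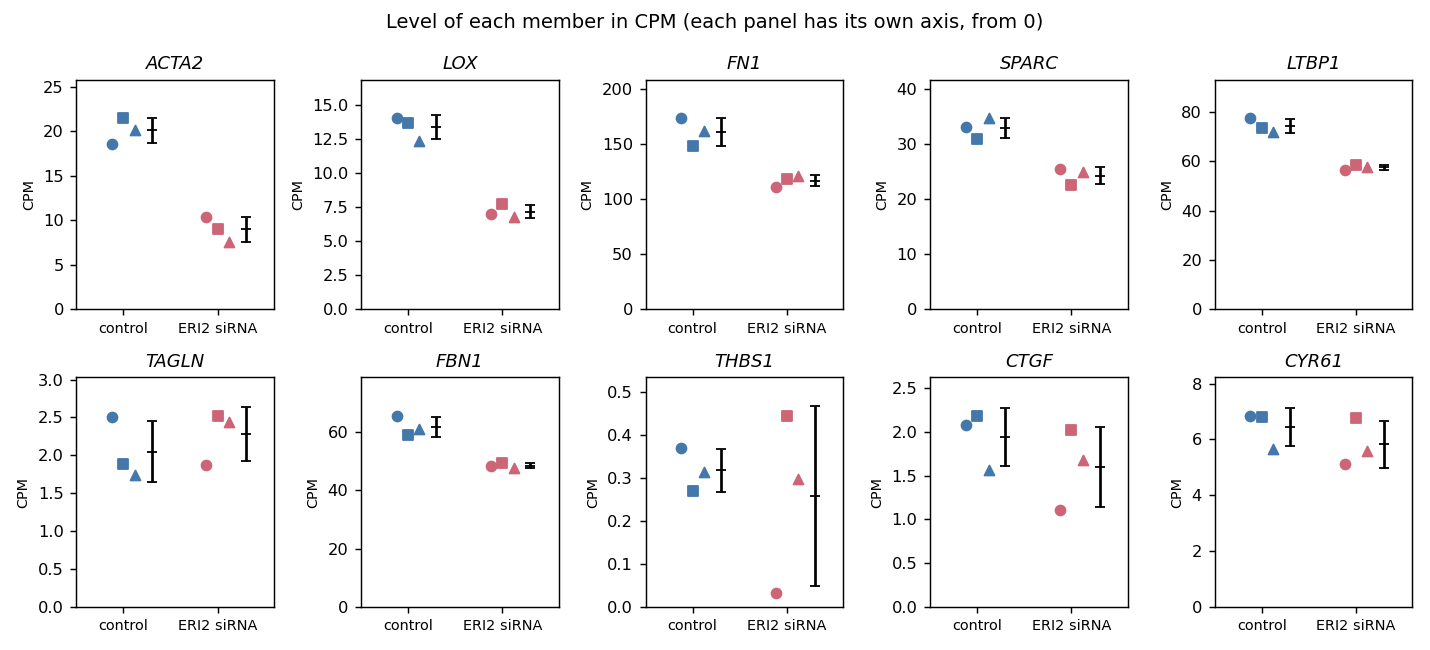
CPM of each of the 10 genes in the 3 control siRNA (blue) and 3 ERI2 siRNA (red) libraries, with black bars for the mean and SD of each group and a separate vertical axis from 0 for each gene. ACTA2 goes from a mean of 20.1 to 8.96 CPM and LOX from 13.3 to 7.14 CPM, while THBS1 stays below 0.5 CPM in every library.

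Some annotated genes overlap the members in RefSeq, and whether counting used strand is not stated in these sources, so reads of overlapping genes cannot be told apart. FAS, a death receptor gene on the strand opposite to ACTA2, fell from 12.7 ± 0.172 to 8.28 ± 1.37 CPM (SD, n = 3), a log2 fold change of -0.62 (edgeR, adjusted p = 0.0112), and the antisense gene ACTA2-AS1 went from 1.06 to 1.51 CPM without passing (log2 fold change 0.49, SE 0.255). SRFBP1, which overlaps LOX, measured 25.9 against 28.7 CPM (0.15, SE 0.0821). ATIC, which overlaps FN1, measured 120 CPM in both groups. PCSK7, which overlaps TAGLN, measured 65.3 against 75.4 CPM without passing (0.21, SE 0.0926), with the sign that TAGLN had. FSIP1 overlaps THBS1, which was not tested. So ACTA2-AS1, SRFBP1 and ATIC did not have the values of the members they overlap, and FAS was lower as ACTA2 was. Reads of TAGLN and PCSK7 cannot be told apart where the genes overlap. ACTA2 also resembles other actin genes in its coding sequence, and whether its reads are shared with them was not tested. ACTB and ACTG1, the cytoplasmic actins, measured 1159 ± 108 against 1187 ± 146 CPM and 1722 ± 222 against 1985 ± 205 CPM (SD, n = 3), and neither passed. The sign of the ACTB difference, 0.03, turned without control replicate 1, without ERI2 siRNA replicate 1 and with replicates 2 and 3 alone. ACTA1, skeletal actin, measured 0.666 against 0.988 CPM and did not pass (log2 fold change 0.57, SE 0.301), and ACTC1 and ACTG2 were below the count filter.

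The rest of the pathway was read from 8 lists that together hold 194 genes besides the 10, of which 158 were tested. Of these, 18 were lower and 5 higher, 14.6% called where 8.54% of all genes were. Leaving out control replicate 3 gave 2 lower and 2 higher, ERI2 siRNA replicate 2 gave 4 and 1, ERI2 siRNA replicate 3 gave 2 and 1, and control replicate 2 gave 11 and 1. Leaving out ERI2 siRNA replicate 1 gave 25 and 12 and control replicate 1 gave 18 and 8, and scaling by total library size gave 8 and 4. The median log2 fold change of the 158 genes was -0.11. By list, edgeR called 3.23% of the actin and myosin genes, 20% of the crosslinking enzymes, 22.2% of the microfibril genes and 15.8% of the matrix glycoproteins. It called 17.6% of the integrins, 21.4% of the TGF-beta genes, 10.7% of the YAP and TAZ genes and 18.8% of the proteases. These lists held few genes each, and the share over all genes tested was 8.54%. The adjusted p-values below are from edgeR's quasi-likelihood test over all genes tested.

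Of 31 tested genes for actins, myosins and their partners, MYL6, a myosin light chain, was the only one to pass. MYL6 fell from 414 ± 35.5 to 317 ± 17.1 CPM (SD, n = 3), a log2 fold change of -0.39 (adjusted p = 0.0159). It did not pass when control replicate 2, control replicate 3, ERI2 siRNA replicate 2 or ERI2 siRNA replicate 3 was left out. SRF, the CArG-binding factor, measured 43.1 against 47.0 CPM (log2 fold change 0.13, SE 0.0838), and its coactivator gene MKL1 measured 44.9 against 48.8 CPM (0.12, SE 0.0849). TAGLN2, the relative of TAGLN, measured 149 against 143 CPM and did not pass. The median of the list was -0.03, near that of all genes. Of 10 smooth muscle markers, MYH11, CNN1, DES and MYOCD each stayed under 0.4 CPM on average in both groups, but SMTN, smoothelin, measured 21.7 against 23.7 CPM (log2 fold change 0.13, SE 0.0818) and LMOD1, leiomodin, 7.63 against 6.12 CPM (-0.32, SE 0.127). SMTN and LMOD1 make up most of the summed level, and in each the groups did not overlap, SMTN being higher and LMOD1 lower with ERI2 siRNA, without passing the test. DES, below the count filter, had 6, 1 and 1 reads in control libraries and 8, 13 and 12 in ERI2 siRNA libraries, higher without overlap. The summed level of the 10 smooth muscle markers was 29.6 to 32.0 CPM in control libraries and 30.6 to 32.4 CPM in ERI2 siRNA libraries, ranges that overlap, and none of the 4 tested passed in edgeR (with unadjusted p under 0.05, 1 was lower and 0 were higher; DESeq2 and limma-voom called 0). With no count filter edgeR called 1 marker higher. It also called 1 higher without control replicate 1, without ERI2 siRNA replicate 1 and with replicates 2 and 3 alone.

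Of 15 tested enzymes that crosslink or modify collagen, 3 fell and none rose in edgeR (0 with unadjusted p under 0.05, 0 by DESeq2, 0 by limma-voom). PLOD2, a lysyl hydroxylase, went from 278 ± 3.98 to 216 ± 18.8 CPM (SD, n = 3), a log2 fold change of -0.36 (adjusted p = 0.0151). P4HA2, a prolyl hydroxylase subunit, fell by 0.37 on the log2 scale (adjusted p = 0.0175) and CRTAP, a partner of a prolyl hydroxylase, by 0.32 (adjusted p = 0.0189). All 3 passed under total library size as well. Without control replicate 3 or without ERI2 siRNA replicate 3, edgeR called 0 genes of this list lower. The relatives of LOX did not pass: LOXL1 had a log2 fold change of -0.31 (SE 0.199), LOXL2 of -0.07 (SE 0.0924), LOXL3 of 0.16 (SE 0.0975) and LOXL4 of -0.59 (SE 0.215). The sign of LOXL2 turned with replicates 2 and 3 alone.

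Of 18 tested microfibril and elastic fibre genes 3 fell and 1 rose. FBN2, the relative of FBN1, fell from 313 ± 6.19 to 255 ± 11.5 CPM (SD, n = 3), a log2 fold change of -0.30 (adjusted p = 0.0254), in proportion close to FBN1. FBLN1, a fibulin, fell by 0.33 (adjusted p = 0.0406) and EMILIN3 by 0.33 (adjusted p = 0.0415). EMILIN2 rose from 23.8 ± 1.40 to 31.5 ± 0.794 CPM (SD, n = 3), a log2 fold change of 0.40 (adjusted p = 0.0116). Under total library size none of the 3 falls passed and EMILIN2 still did. EMILIN2 did not pass without ERI2 siRNA replicate 2. The relatives of LTBP1 did not pass, with log2 fold changes of -0.28 (SE 0.141) for LTBP2, 0.08 (SE 0.135) for LTBP3 and 0.23 (SE 0.127) for LTBP4, of which LTBP3 turned sign without control replicate 2.

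Of 19 tested matrix glycoprotein genes 2 fell and 1 rose. LAMA4, a laminin chain, measured 64.4, 61.2 and 61.3 CPM in control libraries and 42.6, 44.0 and 43.5 CPM in ERI2 siRNA libraries (log2 fold change -0.52, adjusted p = 0.00166). The spacing within each group was far smaller than the gap between them. NID2, nidogen-2, fell by 0.27 (adjusted p = 0.0463), and AGRN, agrin, rose by 0.47 (adjusted p = 0.0314), and of these LAMA4 alone passed under total library size. Of the relatives of THBS1, THBS4 measured 1.995 against 1.58 CPM and did not pass (log2 fold change -0.33, SE 0.232). THBS3 measured 19.6 against 18.3 CPM and did not pass, and its log2 fold change of -0.10 turned sign without control replicate 1, without ERI2 siRNA replicate 1 and with replicates 2 and 3 alone. SMOC1, which shares domains with SPARC, measured 70.9 against 64.4 CPM and did not pass.

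Integrins bind fibronectin, fibrillin and CCN proteins at the cell surface, and 3 of 17 tested fell while none rose in edgeR (1 with unadjusted p under 0.05, 0 by DESeq2, 0 by limma-voom). ITGA8 measured 60.8, 54.4 and 58.6 CPM in control libraries and 38.2, 38.4 and 44.9 CPM in ERI2 siRNA libraries (log2 fold change -0.52, adjusted p = 0.00516). ITGB1, its partner chain, fell from 225 ± 2.37 to 187 ± 11 CPM (SD, n = 3), a log2 fold change of -0.26 (adjusted p = 0.0360), and ITGA6, a laminin receptor chain, by 0.25 (adjusted p = 0.0406). ITGA8 passed under total library size, and ITGB1 and ITGA6 did not.

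Of 14 tested genes of TGF-beta signalling, TGFBR1, the type I receptor, fell from 96.5 ± 5.03 to 75.5 ± 8.43 CPM (SD, n = 3), a log2 fold change of -0.35 (adjusted p = 0.0216). The inhibitor genes SMAD7 (log2 fold change 0.41, adjusted p = 0.0157) and SKI (0.32, adjusted p = 0.0324) rose. Neither passed when control replicate 2, control replicate 3, ERI2 siRNA replicate 2 or ERI2 siRNA replicate 3 was left out. TGFBR1 did not pass without control replicate 3, ERI2 siRNA replicate 2 or ERI2 siRNA replicate 3.

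YAP and TAZ bring CTGF, CYR61 and ANKRD1 under control of cell shape through TEAD proteins. Of 28 tested genes of this group 2 fell and 1 rose, 10.7% called where 8.54% of all genes tested were. Without control replicate 2 or without ERI2 siRNA replicate 3, edgeR called 0 genes of the group higher. ANKRD1 rose from 0.873 ± 0.121 to 1.90 ± 0.286 CPM (SD, n = 3), a log2 fold change of 1.13 (adjusted p = 0.0157), with 29, 29 and 29 reads in control libraries and 65, 53 and 63 in ERI2 siRNA libraries, and it had the largest rise in the 8 lists among genes that passed. MYOF, a membrane repair gene, fell from 3.10 to 1.71 CPM (log2 fold change -0.85, adjusted p = 0.0309), and PTPN14 fell by 0.23 (adjusted p = 0.0437), and neither passed under total library size. YAP1 (-0.26, SE 0.0889), WWTR1, which encodes TAZ (-0.24, SE 0.103), and TEAD1 (-0.11, SE 0.0668) did not pass. So CTGF, CYR61 and ANKRD1, usually read as targets of the same factors, had log2 fold changes of -0.28, -0.15 and 1.13.

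Of 16 tested matrix proteases and inhibitors 3 fell and none rose in edgeR (1 with unadjusted p under 0.05, 1 by DESeq2, 0 by limma-voom). PLAUR, the urokinase receptor, fell from 9.498 ± 0.258 to 6.78 ± 0.106 CPM (SD, n = 3), a log2 fold change of -0.49 (adjusted p = 0.0198). TIMP2, a metalloproteinase inhibitor, fell by 0.36 (adjusted p = 0.0353) and PLAT, tissue plasminogen activator, by 0.30 (adjusted p = 0.0278), and PLAUR alone of the 3 passed under total library size. None of the 3 passed when control replicate 3, ERI2 siRNA replicate 2 or ERI2 siRNA replicate 3 was left out. Among fibroblast markers COL3A1 alone passed of 7 tested (5.92 ± 0.547 to 2.85 ± 0.935 CPM; SD, n = 3; log2 scale -1.05; adjusted p = 0.00990), and COL1A2 and THY1 had no read in any library. VIM, which HEK293 lines express, measured 924 ± 62.4 against 736 ± 98.6 CPM (SD, n = 3) and did not pass, though its groups did not overlap. COL1A1 went the other way, from 8.80 to 10.9 CPM (log2 fold change 0.31, SE 0.134), without passing. PDGFRA (-0.48), LGALS1 (-0.50), S100A4 (-0.08) and LUM (0.25) did not pass either. DESeq2 and limma-voom each called 2 of the fibroblast markers lower and 0 higher. Apart from VIM, the 11 fibroblast markers summed to 21.3 to 27.6 CPM in control libraries and 20.0 to 22.9 CPM in ERI2 siRNA libraries. The part of these markers in the values of the 10 genes was not tested.

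**Figure D3:**
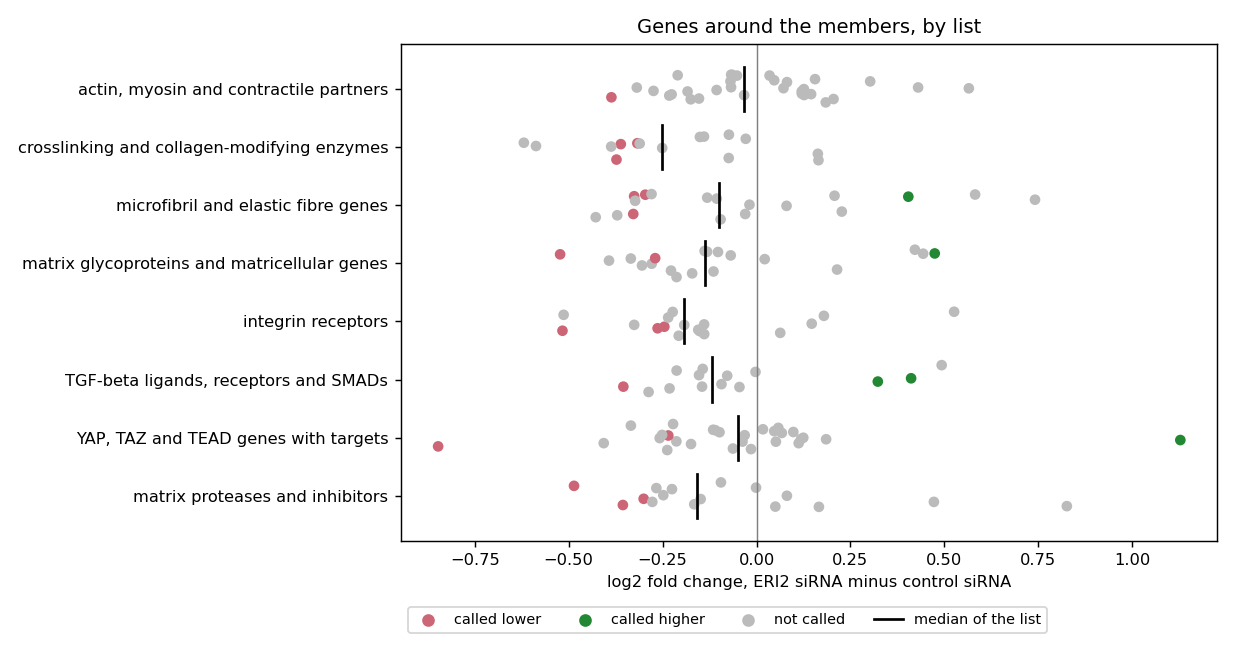
Log2 fold change (horizontal axis, ERI2 siRNA minus control siRNA) of each tested gene in 8 lists around the 10 genes, with red points called lower, green called higher and grey not called at an adjusted p under 0.05, and a black line at each list's median. Points are spread vertically only for visibility; 18 genes are red and 5 are green, and the list medians lie between -0.25 and -0.03.

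The miRNA libraries are a readout that did not enter the choice of the 10 genes. The miR-29 family is known to repress matrix genes such as FBN1 and SPARC, miR-18a and miR-19 repress CTGF and THBS1, and miR-30 and miR-133 repress CTGF. The mature RefSeq sequences (GRCh38.p14) of those that the values below turn on are printed with the seed, bases 2 to 8, in capitals. The 3 members of miR-29 share a seed, as do miR-19a and miR-19b, and miR-30a, miR-30c and miR-30e.
miR-29a-3p: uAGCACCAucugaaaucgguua
miR-29b-3p: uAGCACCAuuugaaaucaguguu
miR-29c-3p: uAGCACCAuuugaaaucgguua
miR-19a-3p: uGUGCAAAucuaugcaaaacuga
miR-19b-3p: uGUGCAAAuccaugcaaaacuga
miR-18a-5p: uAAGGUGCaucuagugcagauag
miR-30a-5p: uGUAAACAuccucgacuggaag
miR-30c-5p: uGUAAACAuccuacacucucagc
miR-30e-5p: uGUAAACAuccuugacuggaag

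Of 28 listed miRNA names tested, 21 were lower and none was higher in edgeR (0 with unadjusted p under 0.05, 0 by DESeq2 and 0 by limma-voom), where 23% of all 1316 names tested were lower and 11.1% higher, 34.1% in either direction. Of names with a mean of at least 100 CPM, 38.1% were lower and 21.3% higher. The scaling sets the size of these differences: under total library size the median of all names tested moved from 0.05 to 1.27, and 17 listed names were lower and 6 higher, where 13.6% and 78.3% of all names were. Changes are therefore read against the median of all names.

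The arm of miR-29 that carries the shared seed fell in all 3 members. miR-29a-3p measured 161, 133 and 153 CPM in control libraries and 40.6, 23.3 and 25.3 CPM in ERI2 siRNA libraries (log2 fold change -2.31, SE 0.202, adjusted p = 4.15e-07 in edgeR's test). miR-29b-3p fell by 2.46 (adjusted p = 1.47e-05 in edgeR's test) and miR-29c-3p by 2.18 (adjusted p = 1.61e-06) on the log2 scale. Under total library size the log2 fold changes were -1.10, -1.25 and -0.97, still lower and past the test. The opposite arm of the same hairpin did not follow: miR-29a-5p measured 27.5, 41.0 and 25.8 CPM against 50.0, 32.4 and 40.8 CPM and did not pass, and under total library size it was higher by 1.61. Within a library, where scaling has no part, the ratio of 3p to 5p reads of miR-29a was 5.87, 3.25 and 5.92 in control libraries and 0.811, 0.718 and 0.621 in ERI2 siRNA libraries. The ratio of miR-29c was 6.70, 6.44 and 4.10 against 2.30, 1.5 and 1.10. In both hairpins the groups did not overlap, so the arms changed unequally, on 9 to 88 reads per arm and library. Unequal arms were not particular to miR-29. The log2 fold change was -0.90 for miR-19a-5p beside -2.37 for miR-19a-3p, and -1.40 for miR-30b-3p beside -2.46 for miR-30b-5p. Other hairpins had arms that fell alike, such as miR-30d, at -1.97 for 3p and -1.94 for 5p.

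miR-19b-3p, of the cluster known to repress CTGF and THBS1, went from 2784 ± 156 to 497 ± 120 CPM (SD, n = 3; log2 fold change -2.48). miR-19a-3p (-2.37) and miR-18a-5p (-2.25) fell similarly, with adjusted p from 1.95e-08 to 7.03e-08 in edgeR's test for the 3. All 11 tested arms of the miR-30 family were lower, led in level by miR-30b-5p, from 6561 ± 146 to 1193 ± 233 CPM (SD, n = 3; log2 fold change -2.46), and 9 of the 11 under total library size. miR-21-5p fell by 2.53, and of the miR-200 family miR-141-3p fell by 1.02 but turned sign to 0.19 under total library size. miR-133a-3p (-0.32, SE 0.289) and miR-133b (0.16, SE 0.334) did not pass, but under total library size both passed as higher, at 0.89 and 1.36 (adjusted p = 0.0112 and 7.41e-04 in edgeR's test), so that miR-133a-3p turned sign. No arm of miR-143 or miR-145, which smooth muscle cells hold at high level, had enough reads for a test. A link between the listed miRNAs and the 10 genes was not tested.

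**Figure D4:**
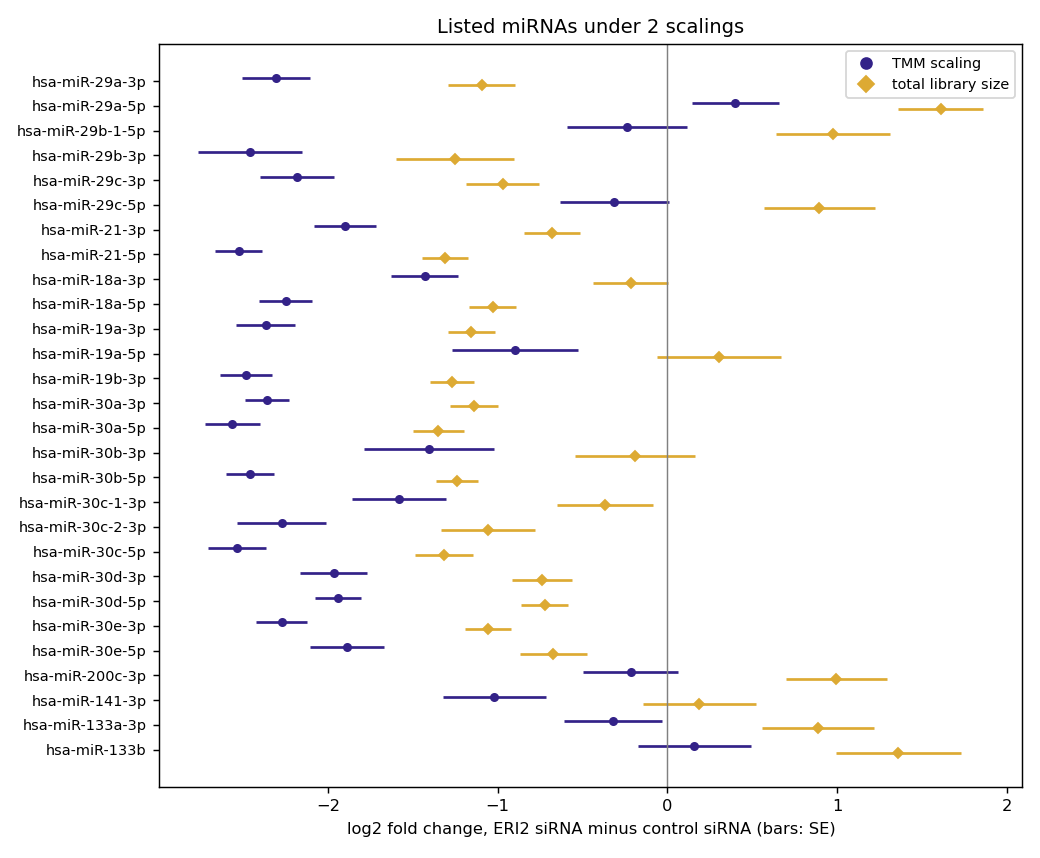
Log2 fold change (horizontal axis, ERI2 siRNA minus control siRNA, bars of 1 SE) of the 28 listed miRNA names tested, under TMM scaling (dark circles) and total library size (yellow diamonds). Total library size places every name to the right of its TMM value, and miR-29a-3p stays below 0 under both scalings, at -2.31 and -1.10.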

How the data were processed

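Long RNA and miRNA of HEK293T cells were sequenced in 12 libraries. Build hg19, HTSeq 0.6.1p1, TopHat2 2.0.10 and CASAVA 1.8.2 are named in the submitters' processing notes without their roles; strand setting, annotation release and miRNA aligner are not stated there. The files deposited by the authors hold raw read counts per gene name and per mature miRNA name, whole numbers with different totals per library. 0 columns were left without a sample.

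After filterByExpr and TMM scaling, counts went into the robust quasi-likelihood test of edgeR 4.0.16 (R 4.3.3) at a Benjamini-Hochberg adjusted p under 0.05 over all names tested, each assay alone; the SE is the log2 fold change over the root of the F statistic. The fit was tested on simulated data. DESeq2 1.42.0, limma-voom 3.58.1, other scalings and filters, the replicate block, leaving out libraries and an adjusted p under 0.01 were alternatives. RefSeq promoter and miRNA sequences of GRCh38.p14 were matched by symbol or name. The members, lists and alternatives were chosen with earlier results of these data known. Named genes are the members, ERI2, the relatives of members, overlapping neighbours, up to 4 called genes per list and direction, and the 5 genes most like ACTA2 and LOX; miRNAs are named at 100 CPM or past the test, and others beside them. The relaxed CArG box was added after the exact one was searched. Replicates differed by more than counting noise (lowest chi-square per degree of freedom 5.07 for RNA-seq, 1.86 for miRNA-seq).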

Additional observations from a re-analysis of the deposited data

How the results depend on the processing

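THBS1, with 32 and 25 reads per group, was too shallow for the test, and the count of genes past the test depends on the library left out and on the scaling. Over all genes, 809 were higher and 800 lower; 1290 were higher with no count filter, 463 lower under total library size, 139 higher and about 1.5e+02 lower at an adjusted p under 0.01, and 2622 higher and 2670 lower with replicates 2 and 3 alone. Leaving out a library gave 176 to 1424 higher and 195 to 1327 lower. Of the genes around the members, 5 were higher and 18 lower; 8 were higher with no count filter, 8 lower under total library size, 0 and 2 at an adjusted p under 0.01, and 19 and 37 with replicates 2 and 3 alone, and leaving out a library gave 1 to 12 and 2 to 25. Leaving out a library left 4 to 6 of the 6 members past the threshold. Of the listed miRNAs 6 were higher under total library size against 0, leaving out a library gave 19 to 22 lower, and miR-141-3p turned from -1.02 to 0.19 under total library size. The causes were not tested.

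Same-numbered libraries did not deviate together (correlation of deviations -0.30, -0.08 and -0.10 in RNA-seq), so the numbers are not read as pairs. With the replicate number as a block, 105 genes were higher and 98 lower, 0 and 2 of the genes around the members, and 3 members, ACTA2, LOX and FN1, were lower, while SPARC, LTBP1 and FBN1 did not pass (adjusted p = 0.0532, 0.0666 and 0.0787 in edgeR's test); listed miRNAs stayed at 21 lower. Signs turned for ACTB (-0.14 with replicates 2 and 3 alone, -0.071 to 0.12 over the left-out libraries), LOXL2 (0.0051 with replicates 2 and 3 alone), LTBP3 (-0.065 to 0.23 over the left-out libraries) and THBS3 (0.18 with replicates 2 and 3 alone, -0.20 to 0.046 over the left-out libraries). Under total library size, miR-133a-3p and 4 other listed miRNAs that had not passed (miR-29c-5p, miR-29b-1-5p, miR-200c-3p and miR-19a-5p) also turned from negative to positive. For THBS1 the difference was 0.22 without ERI2 siRNA replicate 1 and -0.30 with no count filter.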

Other observations

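Genes with the pattern most like ACTA2 over the 6 RNA-seq libraries, among 10314 others of at least 10 CPM, were ATL3, CAV1, MET, PALLD and AMOT, with Pearson's r of log2 CPM from 0.996 to 0.999. CAV1 encodes caveolin-1 of membrane caveolae, PALLD encodes palladin, which bundles actin filaments, MET is a growth factor receptor and AMOT encodes angiomotin, which binds YAP. The log2 fold changes were -0.38 for ATL3, -0.65 for CAV1, -0.35 for PALLD, -0.29 for MET and -0.48 for AMOT. The likeness is thus one of relative spacing among libraries and not of size. The 5 genes most like LOX were PDE5A, EGFR, LONRF2, REPS2 and SEC22C, with r from 0.994 to 0.998, and the lists of ACTA2 and LOX shared no gene. These values describe 6 libraries that fall into 2 groups, which the correlation reads together.

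Of 21 tested genes near or overlapping the members in the RefSeq table, 2 were lower, FAS beside ACTA2 and MOXD1 near CTGF, and 1 was higher. That is 14.3% called, where 8.54% of all genes tested were. CEP152, a centrosome gene near FBN1, rose from 74.7 ± 3.93 to 98.8 ± 4.98 CPM (SD, n = 3), a log2 fold change of 0.40 (adjusted p = 0.00692 in edgeR's test), opposite to that of FBN1. MOXD1, a monooxygenase-like gene, fell by 0.39 (adjusted p = 0.00984 in edgeR's test). Of the 14 markers of the HEK293 line, 3 were lower, NEFL, INA and ENO2, and none was higher in edgeR (0 with unadjusted p under 0.05, 0 by DESeq2, 0 by limma-voom).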
